A study of Mus musculus with 8 samples.

Results

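Brown adipose tissue (BAT) takes up glucose when it makes heat. The genes described here were 10 members of the route from glucose uptake to pyruvate: the glucose carriers Slc2a1 and Slc2a4, the hexokinases Hk1 and Hk2, glucose-6-phosphate isomerase Gpi1, the phosphofructokinases Pfkl and Pfkp, the phosphofructokinase regulator Pfkfb3, triosephosphate isomerase Tpi1 and pyruvate kinase Pkm. They were chosen by gene symbol with earlier results of these data known, and no threshold on their values entered the rule. All 10 were found among the 49452 genes listed and all 10 had enough signal to be tested.

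Total RNA of BAT was sequenced in 8 libraries from male C57BL/6 mice with no engineered allele named in the labels, in 4 groups of 2. In the cold experiment, mice aged 10 to 12 weeks were kept at 22 °C throughout (replicates 4 and 7) or were exposed to 4 °C for 24 h (replicates 2 and 11). By the study's methods food was withdrawn for the last 4 h at 4 °C, and they leave unclear if the 22 °C group was fasted likewise. In the diet experiment, mice were 32 weeks old and had spent 28 weeks on a control diet, called normal chow in the labels and NCD here, or on a high-fat diet (HFD). The NCD libraries were replicates 6 and 8 and the HFD libraries were replicates 2 and 6. The labels do not say whether a library came from 1 mouse, so p-values measure only the spread between these libraries. Values are FPKM, the fragments mapped to a gene per kilobase of transcript, scaled to the size of the library. Because FPKM is per length, levels can be set side by side between genes.

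Glucose enters adipocytes through facilitative carriers, of which GLUT1 (Slc2a1) sits in the plasma membrane of most cells and GLUT4 (Slc2a4) is moved to the membrane by insulin in fat and muscle. Hexokinases trap glucose as glucose-6-phosphate, phosphofructokinase commits it to glycolysis, and pyruvate kinase closes the route with the formation of pyruvate and ATP. BAT is known to raise glucose uptake in the cold, where pyruvate feeds the mitochondria and the synthesis of lipids.

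The tissue label was checked against marker genes. Ucp1, the uncoupling protein that defines brown adipocytes, was present in all 8 libraries, and the summed level of 6 brown adipocyte markers ran from 1298 to 7862 FPKM. Between 23543 and 32686 genes were above 0 per library. One library in every group (replicate 4 of 22 °C, 11 of 4 °C, 8 of NCD and 2 of HFD) carried more than 100 FPKM of the satellite-repeat gene Gm10800, and this split is called library type below. The split was drawn from this gene's values, and no label names such a type or a batch behind it. Gm10800 ran from 447 (4 °C replicate 11) to 15726 FPKM (HFD replicate 2) in these libraries and reached at most 4.13 FPKM in the others. As a covariate in a fit of 4 libraries, the split leaves few degrees of freedom. None of 2613 genes of the X chromosome was above 0 in both 22 °C libraries and NCD replicate 6, so genes of X, Y and the mitochondrial genome were not tested. In the cold comparison this feature of the table and temperature cannot be told apart. The lowest member, Slc2a1, rested on about 277 to 1424 fragments per library and the highest, Pkm, on about 70645 to 188537. These fragment numbers were recovered from the steps between low FPKM values and cover counting error only.

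The promoters of the members were read from RefSeq (assembly GRCm38.p6), which held 12 entries for 9 of the 10 genes, Slc2a4 having none in the table used. Each entry spans 250 bases before and 50 bases after a transcript start. The sequences below are the 250 bases before the start, printed 5′ to 3′ on the strand of the gene, for the member past the threshold in the cold (Gpi1), for the pair with the highest fold change of FPKM + 1 there (Pfkp and Hk2) and for the member that showed no rise (Pfkfb3, second start). Capitals mark the GC box GGGCGG, the half-site TGACG of the cAMP response element and the E-box CACGTG, on either strand.
Gpi1, chr7:34230337-34230586, minus strand: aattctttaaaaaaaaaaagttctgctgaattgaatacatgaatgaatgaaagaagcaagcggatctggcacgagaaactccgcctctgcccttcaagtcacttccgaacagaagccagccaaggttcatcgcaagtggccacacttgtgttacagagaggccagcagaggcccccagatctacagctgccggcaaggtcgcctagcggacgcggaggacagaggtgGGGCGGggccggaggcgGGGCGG
Pfkp, chr13:6648772-6649021, minus strand: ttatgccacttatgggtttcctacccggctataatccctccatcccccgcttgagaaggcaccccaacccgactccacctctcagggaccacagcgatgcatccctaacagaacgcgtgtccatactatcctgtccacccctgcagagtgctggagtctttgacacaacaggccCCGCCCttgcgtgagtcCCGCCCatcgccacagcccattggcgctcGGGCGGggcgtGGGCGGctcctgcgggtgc
Hk2, chr6:82774455-82774704, minus strand: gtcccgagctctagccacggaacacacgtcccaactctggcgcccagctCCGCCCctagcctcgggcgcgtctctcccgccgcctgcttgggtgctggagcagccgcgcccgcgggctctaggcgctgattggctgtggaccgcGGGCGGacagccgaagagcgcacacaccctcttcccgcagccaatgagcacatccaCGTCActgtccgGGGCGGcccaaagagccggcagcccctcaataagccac
Pfkfb3, chr2:11502091-11502340, minus strand: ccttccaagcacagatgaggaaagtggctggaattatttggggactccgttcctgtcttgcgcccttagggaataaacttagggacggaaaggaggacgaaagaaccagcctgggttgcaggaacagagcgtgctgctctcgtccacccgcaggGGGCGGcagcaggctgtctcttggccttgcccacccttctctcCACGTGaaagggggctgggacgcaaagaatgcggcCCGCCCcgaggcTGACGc

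Over the whole entries, the GC box GGGCGG was found in 9 of 12 member promoters, belonging to every member with an entry except Hk1, against 35.7% of 32851 mouse promoters. ACGTG, the core of the hypoxia response element, was found in 6 of 12 entries (Slc2a1, Hk1, Hk2, Pfkfb3 and Pkm) against 19.6% of all promoters. TGACG was found in 4 of 12 entries (Hk2, Pfkfb3 and Pkm) against 20.8%, and the full element TGACGTCA, which contains it, in none of the 12 against 1.79%. CACGTG, which contains ACGTG, was found in 1 of 12 (Pfkfb3) against 7.15%. The median GC content was 62.8% over the 12 entries and 52.7% over all promoters. Each motif was searched on both strands, and a match describes letters in this window and not a bound site.

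**Figure D1:**
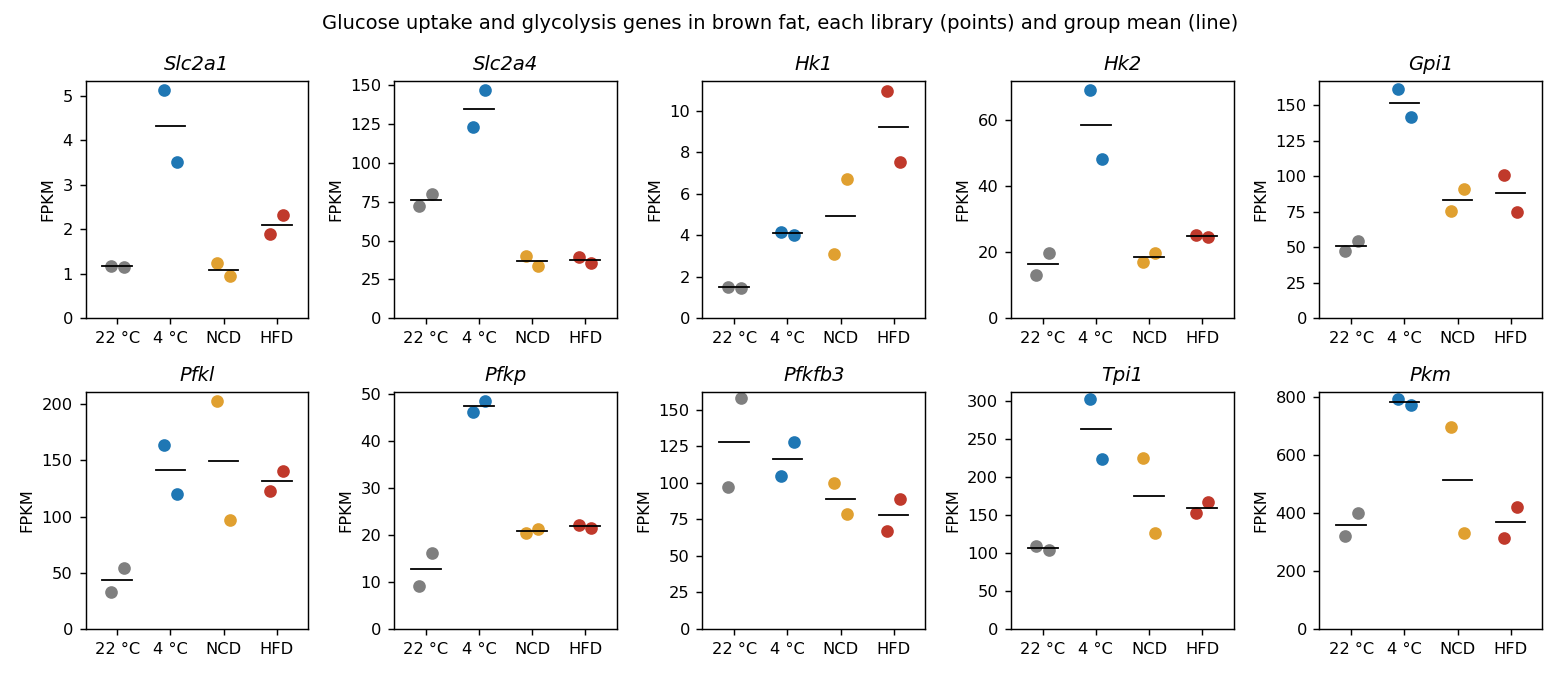
Level of each of the 10 genes in FPKM (vertical axis, linear, from 0) in the 4 groups (horizontal axis). Points are single libraries, 2 per group, and the line is their mean. In 9 of the 10 panels both 4 °C points lie above both 22 °C points, Pfkfb3 being the exception.

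The first comparison asked how these genes differed after 24 h at 4 °C. At 4 °C the levels of 9 of the 10 genes were higher, with both cold libraries above both 22 °C libraries and ratios of the group means between 1.77 and 3.74, and Pfkfb3 was the exception. By the test across all genes, Gpi1 alone rose past the threshold (limma, Benjamini-Hochberg adjusted p under 0.05 and a change of at least 2-fold), with an adjusted p of 0.0499 that lies just under it. Over all 17477 genes tested, 1.44% passed that threshold, 37.9% had both cold libraries above both 22 °C libraries and 20.6% had both below. With other settings the count of members past the threshold ran from 0 (no filter) to 7 (library type as a covariate). Over all genes, 6 of 45232 and 859 of 17477 passed in these 2 settings. The median log2 fold change of the 10 members was 1.28, beside a median of 0.07 over all genes tested and 0.22 over mRNA genes of at least 1 FPKM. Unadjusted limma p-values were under 0.05 for the 9 members, beside 24.5% of all genes tested. With 2 libraries per group, an exact two-sided permutation test of a single gene cannot give a p under 0.333, so no such test is reported.

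The glucose carriers differed widely in level, and whether their responses differed in size was not tested. Slc2a4 (ENSMUSG00000018566, chr11:69942539-69948188, minus strand) was at 72.6 and 80.2 FPKM at 22 °C and at 123 and 147 FPKM at 4 °C. Both cold libraries were above both 22 °C libraries, and the log2 fold change was 0.81 ± 0.24 (SE, n = 2 per group, limma adjusted p = 0.128). Slc2a1 (ENSMUSG00000028645, chr4:119108711-119137983, plus strand) was low throughout, at 1.17 and 1.16 FPKM at 22 °C and 5.13 and 3.51 FPKM at 4 °C. The 22 °C libraries were nearly equal and the cold libraries lay well above them, with means of 1.17 ± 0.00682 and 4.32 ± 1.14 FPKM (SD, n = 2) and a ratio of 3.70. Its log2 fold change was 1.28 ± 0.21 with a limma adjusted p of 0.0527. Because 1 is added to FPKM before the logarithm, the log2 fold change of this low gene understates the ratio of the means.

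Slc2a4 made up 98.4% and 98.6% of the summed FPKM of both carriers at 22 °C and 96.0% and 97.7% at 4 °C. The ratio of Slc2a4 to Slc2a1 was 61.9 and 69.0 at 22 °C and 24.0 and 41.9 at 4 °C. Of this pair, Slc2a4 was the main transcript in every library, and its share was lower in both cold libraries.

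The hexokinases, which phosphorylate glucose on entry, were both higher in the cold. Hk2 (ENSMUSG00000000628, chr6:82725025-82774454, minus strand), the form of insulin-sensitive tissues whose promoter is shown above, was at 13.2 and 19.6 FPKM at 22 °C and at 69.1 and 48.1 FPKM at 4 °C. The lower cold library was more than 2-fold above the higher 22 °C library, and the log2 fold change was 1.78 ± 0.30 (limma adjusted p = 0.0535). Hk1 (ENSMUSG00000037012, chr10:62268855-62379908, minus strand), the form found in most tissues, was at 1.49 and 1.48 FPKM at 22 °C and at 4.17 and 4.03 FPKM at 4 °C. Replicates of each group were close, the groups were apart, and the log2 fold change was 1.04 ± 0.16 (limma adjusted p = 0.0517). Hk2 accounted for 86.7% and 90.4% of the summed hexokinase FPKM at 22 °C and for 92.6% and 91.0% at 4 °C.

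Gpi1 (ENSMUSG00000036427, chr7:34201330-34230336, minus strand), which converts glucose-6-phosphate to fructose-6-phosphate, was at 47.4 and 54.2 FPKM at 22 °C and at 161 and 142 FPKM at 4 °C. The means were 50.8 ± 4.80 and 152 ± 13.7 FPKM (SD, n = 2), a ratio of 2.98, with no overlap between the groups. Its log2 fold change was 1.56 ± 0.23 (95% interval 0.97 to 2.15, limma adjusted p = 0.0499). Gpi1 was past the threshold in 8 of 13 alternative settings and left-out libraries, and its adjusted p ran from 0.0191 to 0.222 over them.

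Phosphofructokinase is built from liver, platelet and muscle type subunits, of which Pfkl and Pfkp are members here. Pfkl (ENSMUSG00000020277, chr10:77986947-78010083, minus strand) was at 32.8 and 53.97 FPKM at 22 °C and at 164 and 119.7 FPKM at 4 °C. Pfkp (ENSMUSG00000021196, chr13:6579768-6648777, minus strand) was at 9.18 and 16.2 FPKM at 22 °C and at 46.2 and 48.5 FPKM at 4 °C. In both genes the cold libraries stood apart from the 22 °C libraries, whose replicates differed more from each other than those of Gpi1.

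The log2 fold change was 1.71 ± 0.33 for Pfkl (limma adjusted p = 0.0632). It was 1.87 ± 0.30 for Pfkp (adjusted p = 0.0517), the highest fold change of FPKM + 1 among the 10 members as reported. With Pfkm, the muscle type subunit, included, Pfkl held 50.8% and 61.9% of phosphofructokinase FPKM at 22 °C and 57.7% and 57.8% at 4 °C, and the ranges overlapped. The share of Pfkp was 14.2% and 18.5% at 22 °C and 16.3% and 23.4% at 4 °C, which overlapped as well.

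Pfkfb3 (ENSMUSG00000026773, chr2:11471433-11554077, minus strand), which makes the fructose-2,6-bisphosphate that activates phosphofructokinase, went its own way. Its level was 97.4 and 158 FPKM at 22 °C and 105 and 128 FPKM at 4 °C, so that the cold libraries lay between the 22 °C libraries. The log2 fold change was −0.10 ± 0.32 with a 95% interval of −0.91 to 0.72 (limma adjusted p = 0.884), and a 2-fold difference in either direction lies outside that interval. The difference became positive when 22 °C replicate 7 (0.25) or 4 °C replicate 2 (0.05) was left out. Pfkfb3 was the main transcript of its family, with 91.7% to 97.0% of the autosomal Pfkfb FPKM over the 8 libraries.

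Tpi1 (ENSMUSG00000023456, chr6:124810586-124814296, minus strand), which interconverts the triose phosphates made by aldolase, was at 109.6 and 104 FPKM at 22 °C and at 303 and 225 FPKM at 4 °C. The lower cold library was more than 2-fold above the higher 22 °C library, and the log2 fold change was 1.28 ± 0.28 (limma adjusted p = 0.0754). Pkm (ENSMUSG00000032294, chr9:59656368-59679375, plus strand), the pyruvate kinase of muscle, fat and most other tissues, was the most abundant member in every library, at 319 and 398 FPKM at 22 °C and at 794 and 772 FPKM at 4 °C. The cold libraries were close to each other, both lay above the 22 °C libraries, and the log2 fold change was 1.13 ± 0.31 (limma adjusted p = 0.109). Gene values do not separate the M1 and M2 splice forms of Pkm. Exons of Slc2a1, Hk1, Gpi1, Pfkp, Tpi1 and Pkm overlap exons of another annotated gene (Gm12868, Hk1os, Gm26762, Pitrm1, Spsb2 and Gm49759, respectively), and whether strand was used in the quantification is not given in the sources used here.

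**Figure D2:**
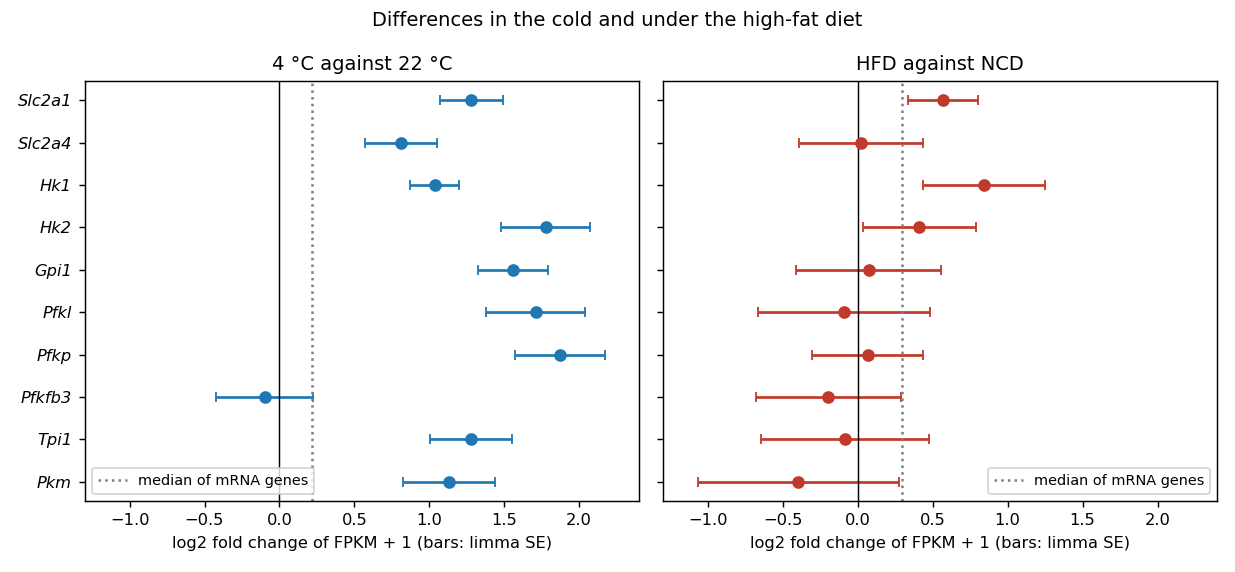
Log2 fold change of FPKM + 1 for the 10 genes, 4 °C against 22 °C on the left and HFD against NCD on the right. Points are limma estimates from 2 libraries per group, bars are their SE, the solid line marks no difference and the dotted line the median of mRNA genes (0.22 and 0.30). On the left 9 points lie between 0.81 and 1.87 and Pfkfb3 at −0.10, and on the right the points lie between −0.40 and 0.84.

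The cold result of single members turned on the setting. Of 13 alternatives, Slc2a1 was past the threshold in 9, Gpi1 in 8, Hk2 in 7, Pfkp in 6, Hk1 and Pfkl in 3 each, Tpi1 in 2, and Slc2a4, Pkm and Pfkfb3 in none. The direction of the 9 higher members was the same in all 13. After rescaling each library to its autosomal mRNA sum without Ucp1, which moved the median of mRNA genes from 0.22 to −0.12, the log2 fold changes of the 9 lay between 0.40 (Slc2a4) and 1.48 (Pfkp). With quantile normalization Slc2a4 was at 0.27 (limma adjusted p = 0.647), and 8 members in place of 9 did not overlap. Within library type, with 1 library against 1 and no test, all 9 were higher in both types, with 1.56 and 1.56 for Gpi1, 1.79 and 1.76 for Hk2 and 2.28 and 1.46 for Pfkp. Pfkfb3 was higher in the satellite-rich pair (0.39) and lower in the other (−0.59).

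**Figure D3:**
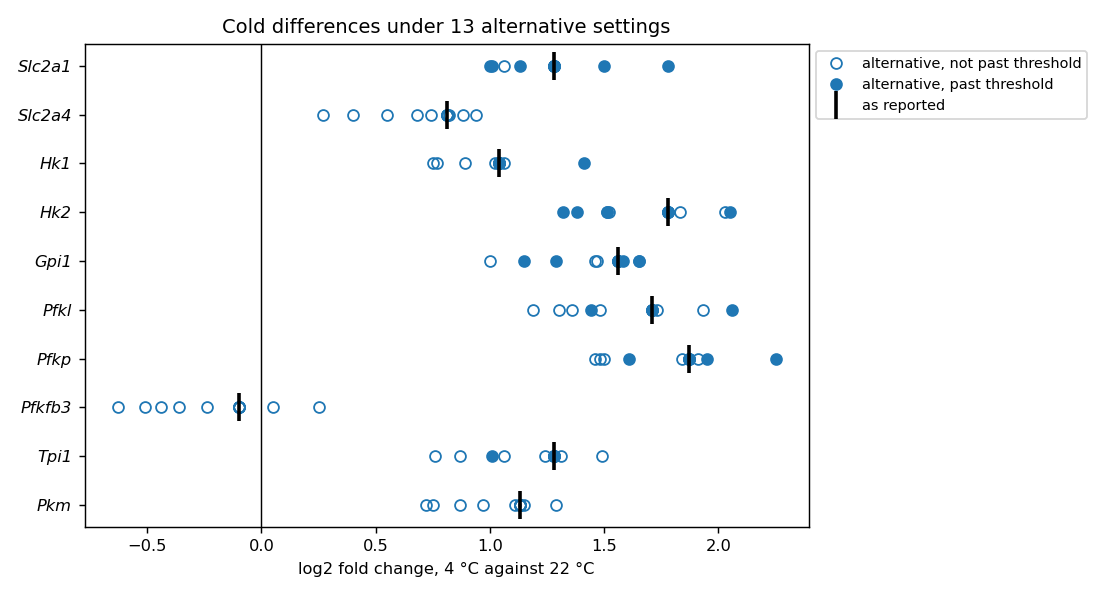
Log2 fold change, 4 °C against 22 °C (horizontal axis), of each of the 10 genes under 13 alternatives, of which 4 leave out 1 library. The black bar is the value as reported, filled circles are alternatives past the threshold and open circles are not. Slc2a1 has 9 filled circles, Gpi1 has 8, and Slc2a4, Pfkfb3 and Pkm have none.

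Markers of skeletal muscle, a tissue that is rich in glycolytic enzymes and lies next to BAT, were higher at 4 °C. The summed level of the 11 muscle markers in the table was 619 and 149 FPKM at 22 °C and 4768 and 2117 FPKM at 4 °C. All 11 were higher in both cold libraries. Their median log2 fold change was 3.37, with limma adjusted p-values from 0.0602 to 0.109. None was past the threshold, and all 11 had an unadjusted p under 0.05. Genes of glucose uptake and glycolysis are also expressed in muscle, Hk2, Slc2a4, Pfkm and Pkm among them. That list is not complete and does not set Gpi1 or any other member apart from muscle. The part of muscle RNA, or of the other cell types below, in the members' values was not tested. The sum of the brown adipocyte markers was higher too, with 1298 and 1992 FPKM at 22 °C and 7862 and 6464 FPKM at 4 °C. Both cold libraries were above both 22 °C libraries in 5 of the 6 markers, among them Cidea with a log2 fold change of 0.13. Prdm16 was lower in both (−0.68, limma adjusted p = 0.216). Of these 6, Ppargc1a, Dio2 and Elovl3 rose past the threshold (log2 fold changes of 2.92, 3.01 and 4.58, limma adjusted p = 0.0208, 0.0196 and 0.0467). Lep and Nnat of the 3 white adipocyte markers had log2 fold changes of −2.13 and −1.85 (limma adjusted p = 0.0527 and 0.0517), and Retn had 1.27 (adjusted p = 0.177). In whole tissue, a larger share of a cell type and more RNA per cell cannot be told apart. Within each group, the library with more muscle marker signal was set beside the other. At 22 °C it was replicate 4, which was also the satellite-rich library, and 3 of 10 members were higher in it (Slc2a1, Hk1 and Tpi1), beside 47.6% of all genes tested. At 4 °C it was replicate 2, and 7 of 10 members were higher in it (Slc2a1, Hk1, Hk2, Gpi1, Pfkl, Tpi1 and Pkm), beside 70.9% of all genes. In NCD it was replicate 8, again satellite-rich, with 4 of 10 members higher, beside 35.8% of all genes, and in HFD it was replicate 2, satellite-rich as well, with 5 of 10, beside 29.4%. Muscle signal and library type thus coincided in 3 of the 4 groups.

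The other genes of the pathway were taken from a list of 36, of which 30 could be tested. In the cold, 2 rose past the threshold and 0 fell, beside 1.44% of all genes tested that passed in either direction. An unadjusted limma p under 0.05 was found for 17, beside 24.5% of all genes. The median log2 fold change of the 30 was 0.52. Both cold libraries were above both 22 °C libraries in 18 of the 30, beside 37.9% of all genes. In 2 both were below, beside 20.6%. The genes that passed were Fbp1 and Fbp2, both fructose-1,6-bisphosphatases, which run the phosphofructokinase step backwards. Fbp2, the muscle form, was at 4.59 and 8.08 FPKM at 22 °C and at 30.6 and 31.2 FPKM at 4 °C (log2 fold change 2.16 ± 0.28, limma adjusted p = 0.0441). Fbp1, the liver form, was at 0.126 and 0.145 FPKM at 22 °C and at 1.71 and 2.48 FPKM at 4 °C (1.44 ± 0.15, limma adjusted p = 0.0299). In both genes the groups were far apart, although Fbp1 stayed low in every library. The log2 fold change of FPKM + 1 understates the ratio of the means of Fbp1, and with a pseudocount of 0.1 it was 3.20. Without 4 °C replicate 2 the adjusted p was 0.0838 for Fbp1 and 0.124 for Fbp2, and without 4 °C replicate 11 it was 0.064 for Fbp2. With no filter on low values it was 0.288 for Fbp1 and 0.334 for Fbp2. The largest log2 fold changes of FPKM + 1 in the list did not pass, namely those of Pgam2 and Eno3, the muscle forms of phosphoglycerate mutase and enolase, which lay in the direction of the muscle markers. Pgam2 was at 9.56 and 2.38 FPKM at 22 °C and at 83.1 and 32.8 FPKM at 4 °C (3.16 ± 0.67, limma adjusted p = 0.0722). Eno3 was at 16.1 and 5.44 FPKM at 22 °C and at 142 and 58.3 FPKM at 4 °C (3.13 ± 0.61, limma adjusted p = 0.0632). Pgam2 and Eno3 did pass with median centring (limma adjusted p = 0.0377 and 0.0303) and with library type as a covariate (0.044 and 0.0381). Over the alternatives their log2 fold changes ran from 2.34 to 3.98 and from 2.43 to 3.84. By the ratio of the group means, Fbp1 (15.5) was above Pgam2 (9.71) and Eno3 (9.30).

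The second comparison asked how the 10 genes differed after 28 weeks of HFD. In the description labels NCD replicate 6 carries the prefix of the cold experiment's libraries, whereas NCD replicate 8 and both HFD libraries carry another, so values without NCD replicate 6 are values within 1 prefix. None was past the threshold by limma, 1 had an unadjusted p under 0.05 (Slc2a1), beside 14.4% of all genes tested, and the lowest adjusted p was 0.330. Over all 17543 genes tested, 0.0684% passed the threshold. Slc2a1, Hk1, Hk2 and Pfkp had both HFD libraries above both NCD libraries, 4 of 10 beside 39.9% of all genes (Pfkp with a sign that turned under other scalings), and no member had both below, beside 5.8% of all genes. The median log2 fold change of the members was 0.04, beside 0.18 over all genes tested and 0.30 over mRNA genes of at least 1 FPKM.

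As reported, the largest differences were in Hk1 and Slc2a1, the widely expressed forms of hexokinase and carrier. With median centring the largest in size was that of Pkm (−0.75). After rescaling Pkm was at −0.56, beside 0.68 for Hk1 and 0.47 for Slc2a1. Hk1 was at 3.12 and 6.72 FPKM in NCD and at 10.97 and 7.52 FPKM in HFD. The groups did not overlap, but NCD replicate 8 came close to HFD replicate 6, and the log2 fold change was 0.84 ± 0.41 (95% interval −0.12 to 1.80, limma adjusted p = 0.405). Slc2a1 was at 1.25 and 0.945 FPKM in NCD and at 1.89 and 2.32 FPKM in HFD. The HFD libraries were above the NCD libraries with a ratio of the means of 1.93 and a log2 fold change of 0.57 ± 0.23 (95% interval 0.02 to 1.12, limma adjusted p = 0.330).

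With library type as a covariate the limma adjusted p was 0.0250 for Hk1 and 0.0336 for Slc2a1, and their log2 fold changes of 0.84 and 0.57 stayed under the 2-fold threshold. Over the alternatives the adjusted p ran up to 0.961 for Hk1 and 1 for Slc2a1. The difference of Slc2a1 was 0.28 with quantile normalization and 0.21 with median centring. That of Hk1 was 0.48 in both, 0.39 without NCD replicate 6 and 1.29 without NCD replicate 8. Within library type, 1 library against 1, Slc2a1 differed by 0.57 in both types and Hk1 by 0.63 and 1.05.

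Hk2 was at 17.1 and 19.8 FPKM in NCD and at 25.1 and 24.5 FPKM in HFD, a small and separate shift with a log2 fold change of 0.41 ± 0.38 (limma adjusted p = 0.666). With other scalings it was 0.16 (quantile normalization), 0.05 (median centring) and 0.25 (rescaling). The share of Hk2 in the summed hexokinase FPKM was 80.6% and 74.2% in NCD and 66.2% and 70.8% in HFD, with both HFD libraries below. The share of Hk1 was 14.7% and 25.1% in NCD and 28.9% and 21.8% in HFD, and these overlapped. Slc2a4 was at 40.2 and 33.6 FPKM in NCD and at 39.3 and 35.3 FPKM in HFD, a log2 fold change of 0.02 ± 0.41 (95% interval −0.95 to 0.99). The HFD libraries of Slc2a4 lay between the NCD libraries, and a fall or rise short of 2-fold is within the interval.

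The enzymes from Gpi1 to Pkm showed no separate shift except for Pfkp. Gpi1 was at 75.3 and 91.1 FPKM in NCD and at 101 and 75.2 FPKM in HFD, with overlapping groups and a log2 fold change of 0.07 ± 0.48. Pfkp was at 20.4 and 21.3 FPKM in NCD and at 22.2 and 21.5 FPKM in HFD. These were apart by less than 1 FPKM, the log2 fold change of 0.07 ± 0.37 had a limma adjusted p of 0.953, and it turned negative under quantile normalization, median centring and rescaling. Pfkl was at 203 and 97.0 FPKM in NCD and at 123 and 141 FPKM in HFD (−0.09 ± 0.57). Both HFD libraries lay between the NCD libraries, of which replicate 6 was the higher.

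Tpi1, with 225 and 127 FPKM in NCD and 152 and 167 FPKM in HFD, had the same arrangement (−0.08 ± 0.56). Pkm was at 697 and 329 FPKM in NCD and at 315 and 419.9 FPKM in HFD (−0.40 ± 0.67), again with NCD replicate 6 above the other libraries. Without NCD replicate 6 the log2 fold changes of Pfkl, Tpi1 and Pkm were 0.43, 0.33 and 0.14, each of the opposite sign. Pfkl was also positive (0.0025) without HFD replicate 2. Pfkfb3 was at 99.6 and 78.9 FPKM in NCD and at 67.1 and 88.9 FPKM in HFD, overlapping groups with a log2 fold change of −0.20 ± 0.48 (limma adjusted p = 0.888).

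Among the other genes of the pathway, 0 of 30 were past the threshold under HFD in the limma fit as reported. In that fit 10 had an unadjusted p under 0.05, beside 14.4% of all genes tested. Both HFD libraries were above both NCD libraries in 11, beside 39.9% of all genes, and below in 9, beside 5.8%. The median log2 fold change was 0.02. The 3 with the largest log2 fold change of FPKM + 1 in size were Eno3, Pgam2 and Pfkm, the muscle forms of enolase, phosphoglycerate mutase and phosphofructokinase. Eno3 was at 30.2 and 63.8 FPKM in NCD and at 9.36 and 2.57 FPKM in HFD (−2.89 ± 0.60, limma adjusted p = 0.151). Pgam2 was at 13.1 and 26.3 FPKM in NCD and at 3.88 and 0.529 FPKM in HFD (−2.85 ± 0.59, limma adjusted p = 0.151). Pfkm was at 19.7 and 31.4 FPKM in NCD and at 10.1 and 9.77 FPKM in HFD (−1.24 ± 0.39, limma adjusted p = 0.225). All 3 were lower in both HFD libraries. With library type as a covariate all 3 passed the threshold (limma adjusted p = 0.00151 for Eno3, 0.00203 for Pgam2 and 0.0128 for Pfkm). Without NCD replicate 6 their log2 fold changes were −3.41, −3.32 and −1.57. By the ratio of the group means, the low gene Fbp1 (0.0952) was below Pgam2 (0.112), Eno3 (0.127) and Pfkm (0.389).

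The muscle markers lay in the same direction, at 633 and 1647 FPKM in NCD and 217 and 40.4 FPKM in HFD in sum, with 10 of 11 lower in both HFD libraries. The macrophage markers lay the other way, at 135 and 51.0 FPKM in NCD and 279.7 and 316 FPKM in HFD in sum. All 7 were higher in both HFD libraries and all 7 had an unadjusted limma p under 0.05. None was past the threshold, and their median difference was 1.83 on the log2 scale. Hk3 and Slc2a3, a hexokinase and a glucose carrier of the other pathway genes, had log2 fold changes of 1.17 ± 0.27 (limma adjusted p = 0.163) and 0.74 ± 0.21 (adjusted p = 0.1995). In the cold, where the macrophage markers overlapped between groups, Hk3 was at −0.01 and Slc2a3 at 0.62. The cell type behind the values of Hk3 and Slc2a3 was not tested. All 3 white adipocyte markers were higher in both HFD libraries, and Lep and Nnat rose past the threshold (log2 fold changes of 5.005 and 3.943, limma adjusted p = 0.0425 for both). The 6 brown adipocyte markers did not share 1 direction, and none was past the threshold. Elovl3 and Cidea were lower in both HFD libraries (log2 fold changes of −3.14 and −1.07, limma adjusted p = 0.118 and 0.513). Dio2, Ppargc1a and Prdm16 were higher in both (0.86, 0.40 and 0.14), and Ucp1 overlapped (−0.21). The part of brown adipocyte, macrophage, muscle or white adipocyte RNA in the members' HFD values was not tested.

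**Figure D4:**
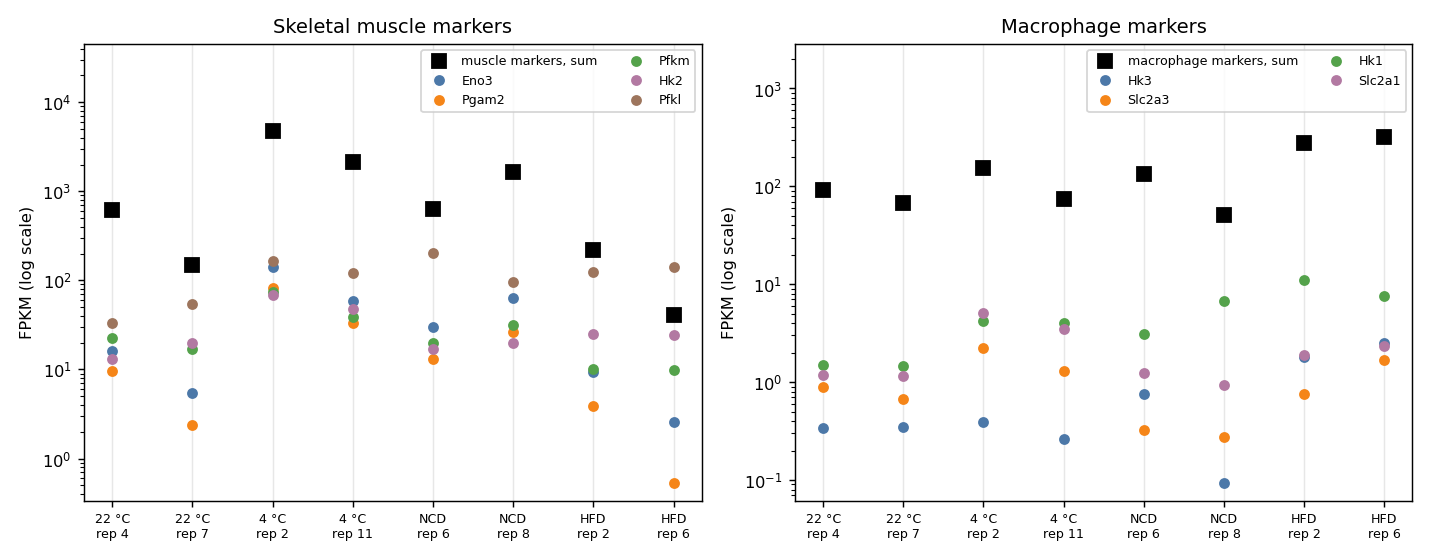
Summed FPKM of marker genes (black squares) and FPKM of single genes (circles) in each of the 8 libraries, on a log axis, with skeletal muscle on the left and macrophages on the right. Muscle markers are at 4768 and 2117 FPKM in the 4 °C libraries and 217 and 40.4 FPKM in the HFD libraries, and macrophage markers are highest in the HFD libraries, at 279.7 and 316 FPKM.

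Across the 4 groups the members did not share 1 order of levels. The 4 °C group had the highest mean for Slc2a1, Slc2a4, Hk2, Gpi1, Pfkp, Tpi1 and Pkm, of which Tpi1 overlapped with NCD. Hk1 was highest in HFD (9.25 ± 2.44 FPKM, SD, n = 2) and lowest at 22 °C (1.48 ± 0.00499 FPKM), with 4 °C and NCD overlapping between them. Pfkl was lowest at 22 °C, and its HFD, 4 °C and NCD ranges overlapped.

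Slc2a4 was at 36.9 ± 4.65 FPKM in NCD and 37.3 ± 2.79 FPKM in HFD, which overlapped, and both lay below its 76.4 ± 5.41 FPKM at 22 °C. Pfkfb3 had its means in the order HFD, NCD, 4 °C and 22 °C. Its NCD range overlapped with those of HFD and 22 °C, and its 4 °C range with that of 22 °C. The mice of the cold and diet experiments also differ in age, and age and experiment cannot be told apart.

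**Figure D5:**
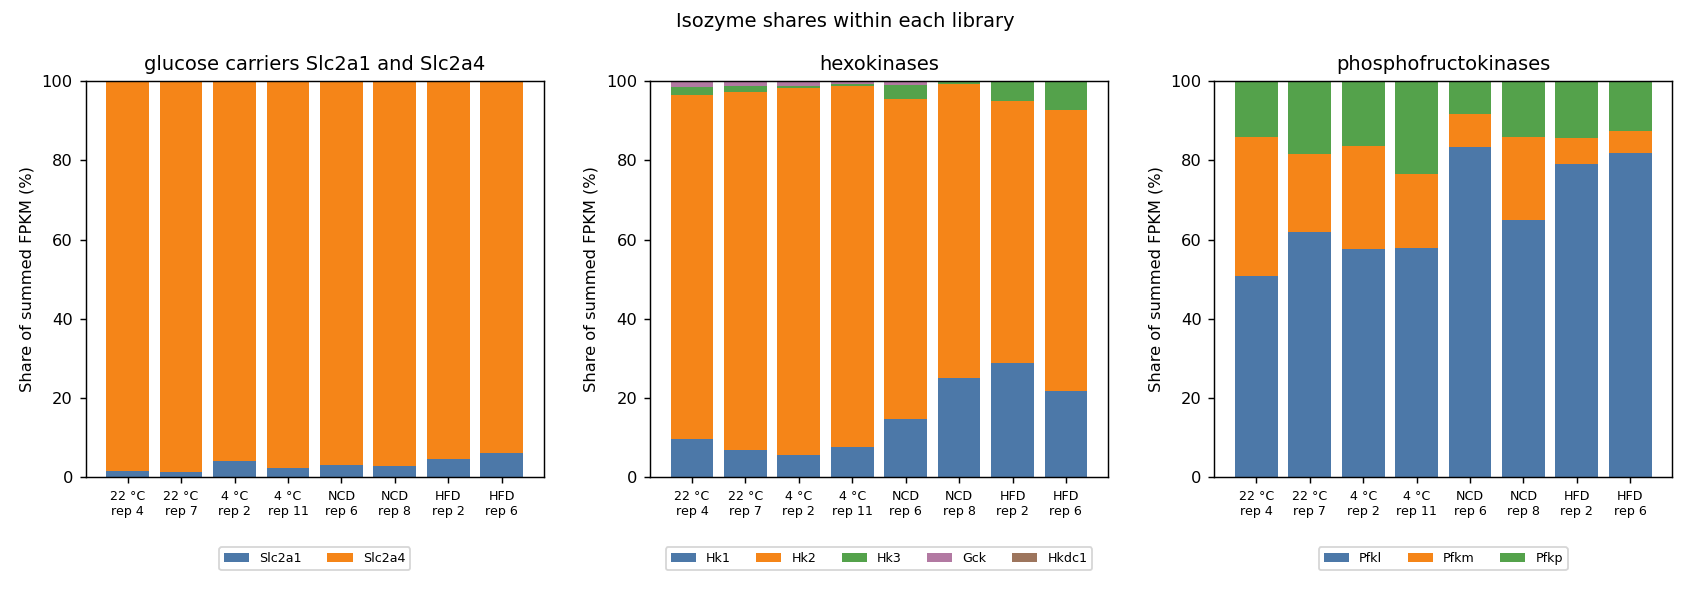
Share of each gene in the summed FPKM (vertical axis, percent, from 0) of the glucose carriers Slc2a1 and Slc2a4, the hexokinases and the phosphofructokinases in each of the 8 libraries. Hk2 takes 86.7% to 92.6% of hexokinase FPKM in the 4 libraries of the cold experiment and 66.2% to 80.6% in those of the diet experiment.

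In the diet experiment the shares of Hk2 among hexokinases and of Pfkl among phosphofructokinases differed from those of the younger mice. The share of Hk2 was between 86.7% and 92.6% in the 4 libraries of the cold experiment and between 66.2% and 80.6% in the 4 libraries of the diet experiment. The ratio of Hk2 to Hk1 was 8.89 to 16.6 in the former and 2.29 to 5.47 in the latter. The share of Pfkl was 50.8% to 61.9% in the former and 64.8% to 83.5% in the latter. None of these ranges overlapped. NCD replicate 6, the library of the diet experiment that shares its label prefix with the cold experiment, had a share of 80.6% for Hk2 and 83.5% for Pfkl. These shares set whole experiments side by side and carry no test.

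For 4 members the genes with the most similar pattern were listed, by Pearson r of log2(FPKM + 1) over the 8 libraries and among 10877 autosomal genes, as a description in which all genes share the same libraries. They were Slc43a2, Prelid3b and Letmd1 for Pfkp (0.973, 0.966 and 0.962) and Ddi2, Tuba4a and Trib3 for Hk2 (0.982, 0.980 and 0.978). For Hk1 they were Dnm1l, Trip4 and Tiam1 (0.975, 0.973 and 0.972), and for Slc2a1 they were Gm7008, Ifrd1 and Polrmt (0.999, 0.992 and 0.989). Among the members themselves r was highest between Gpi1 and Pfkp (0.953) and between Slc2a1 and Hk2 (0.948), and lowest between Hk1 and Pfkfb3 (−0.76).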

How the data were processed

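Per the labels and the study's methods, BAT RNA was depleted of ribosomal RNA, made into directional libraries and sequenced as paired reads of 100 bases. The authors processed the reads with TopHat2 2.0.10 and Cufflinks 2.2.1 (submitters' processing notes) on GRCm38 and Ensembl release 87 genes. They deposited FPKM per gene, with a separate column for each library. The study's methods give a different Cufflinks version. Counts were not used here. Of 49452 genes, 49109 matched GENCODE M21 (GRCm38).

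Each comparison was fitted in R 4.3.3 to log2(FPKM + 1) of its 4 libraries by limma 3.58.1 (lmFit, eBayes with trend) and no covariate. Genes needed 0.1 FPKM in 2 of 4 libraries. Two-sided p-values were adjusted over all genes tested (Benjamini-Hochberg), and a gene passed at an adjusted p under 0.05 if its log2 fold change was 1 or more in size. The script was tested on simulated data. One fragment on 2000 bases was worth 0.00437 to 0.00605 FPKM, since 97.7% to 98.6% of low values in single-exon genes were whole multiples within 0.1 fragment.

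Members, gene lists, filter and tests were chosen with earlier results of these data known. Named were all members, other pathway genes past the threshold or else the 3 with the largest change, and the 3 most similar genes for the members with the 2 largest changes in each comparison. Hk3, Slc2a3 and Fbp1 (HFD) and Pgam2 and Eno3 (cold) fall outside this rule and were named after their values were seen. Alternatives were a pseudocount of 0.1, no filter, a filter at 1 FPKM, quantile normalization, median centring, all 8 libraries in 1 fit, library type as a covariate, each library left out and, added after the data were seen, rescaling to the autosomal mRNA sum and genes of the numbered autosomes only.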

Additional observations from a re-analysis of the deposited data

How the results depend on the processing

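In the cold, 1 of the 10 members was past the threshold as reported, and 4 with a pseudocount of 0.1, 0 without a filter, 5 with a filter at 1 FPKM, 2 with quantile normalization, 6 with median centring, 3 after rescaling, 1 with the numbered autosomes only, 4 with all 8 libraries in 1 fit and 7 with library type as a covariate. Leaving out 1 library gave 0 to 5 (0 without 22 °C replicate 4 or 4 °C replicate 2, 5 without 22 °C replicate 7, 1 without 4 °C replicate 11). Over all genes, 252 passed (213 higher, 39 lower), against 474 with a pseudocount of 0.1, 6 without a filter, 529 of 10943 with a filter at 1 FPKM, 515 with quantile normalization (329 higher, 186 lower), 751 with median centring (480 higher, 271 lower), 580 after rescaling (311 higher, 269 lower), 439 with all 8 libraries and 859 with library type. Leaving out 1 library gave 512 and 767 (22 °C replicates 4 and 7), 1 and 434 (4 °C replicates 2 and 11). Under HFD 12 genes passed (9 higher, 3 lower), against 43 with median centring (22 higher, 21 lower), 0 without a filter, with quantile normalization or after rescaling, 24 with a filter at 1 FPKM, 75 with all 8 libraries and 745 with library type, and 98 to 726 with 1 library left out. The count of members that did not overlap in the cold was 9 as reported and stayed within 8 to 10. No member passed under HFD in any setting. The count that did not overlap under HFD was 4 as reported, 3 with quantile normalization, 6 after median centring and 5 to 9 with 1 library left out, where single libraries overlap less. In both comparisons the share of all genes without overlap was computed only for the values as reported. The counts under the alternatives therefore have no background beside them and describe the members alone.

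With 1 library left out, Pfkfb3 ranged from −0.44 to 0.25 in the cold (positive without 22 °C replicate 7 or 4 °C replicate 2). Under HFD the sign turned with quantile normalization, with median centring and on rescaling, in that order, for Slc2a4 (−0.15, −0.34 and −0.14), Gpi1 (−0.08, −0.29 and −0.09) and Pfkp (−0.19, −0.29 and −0.09). With 1 library left out, the HFD values ranged from −0.10 (without NCD replicate 8) to 0.15 for Slc2a4, −0.14 (without HFD replicate 2) to 0.28 for Gpi1, −0.62 to 0.43 (without NCD replicate 6) for Pfkl, −0.49 to 0.33 (without NCD replicate 6) for Tpi1, −0.94 to 0.14 (without NCD replicate 6) for Pkm and −0.40 to 0.0047 (without HFD replicate 2) for Pfkfb3. These are log2 fold changes of members that were not past the threshold in that comparison, and the cause was not tested. A fit with 1 library left out assumes that the lone library of a group varies like the others. No pairing by replicate number was possible because the 22 °C and 4 °C groups share no replicate number and NCD and HFD share only number 6.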
